A study of Caenorhabditis elegans with 3 samples.

Results

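The genes described here encode the meiotic chromosome axis and the synaptonemal complex of the nematode worm Caenorhabditis elegans. They were chosen by name: him-3, htp-1, htp-2, htp-3, syp-1, syp-2, syp-3, syp-4, rec-8 and coh-3. A gene counted as measured where a probe carried its symbol and no other, and 8 of the 10 listed genes met this, each with 1 probe. No probe was named for htp-2 or syp-4, which were not analysed here. The 8 measured genes stood among 15092 named genes that had a value on all 3 arrays, out of 20000 probes.

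The study co-hybridised RNA of adult hermaphrodites, sampled under the code TP09, with RNA of a mixed wild-type reference on 3 arrays read in 2 colours. The 3 arrays carried 3 preps of adult RNA, called replicates 1 to 3 after the prep number in the labels, and the same kind of reference in the other channel. The labels give no strain or age for the adults, do not say which stages or sexes were mixed in the reference, and leave unstated if each prep was grown separately. P-values therefore cover the spread between preps alone, and that spread may be technical.

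In meiotic prophase each chromosome is organised along a proteinaceous axis, and the synaptonemal complex then joins the axes of paired homologous chromosomes along their length. Cohesin complexes with meiosis-specific kleisin subunits (REC-8, and COH-3 with its close relative COH-4) hold sister chromatids together and form the base of the axis. The HORMA domain proteins HTP-3, HIM-3, HTP-1 and HTP-2 assemble on that base, and the SYP proteins form the central region between the axes. In an adult hermaphrodite, germ cells in meiotic prophase fill a large part of each gonad arm, and the genes act there.

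All values are log2 ratios, and adult over reference was taken as the likely direction, since adult RNA is in channel 2 and is the first-named side of the labels' comparison, although the labels do not state how the ratio was formed. With the opposite direction every sign below turns. Each array was centred on its median probe, so 0 is the level of the median probe and 1 is a 2-fold higher adult level. Replicate 1 stood apart from the other arrays. Pearson's r across all genes tested (genes are no independent replicates) was 0.82 between replicates 1 and 2 and 0.85 between replicates 1 and 3, against 0.92 between replicates 2 and 3. Ratios also shifted along the rows of the table, on all 3 arrays. In the run of rows with the coh-3 probe the medians were -0.48, -0.17 and -0.17 on replicates 1 to 3. In that with the htp-3 probe they were -0.04, 0.13 and 0.12. The value without replicate 1, or centred by runs of rows, is therefore given where it changes a result.

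Transcripts of 7 of the 8 measured axis and synapsis genes had a higher ratio than the median probe, that is, were higher in adults, and none was lower (count 0). Their mean log2 ratios ran from 0.67 for syp-2 to 1.37 for rec-8, and syp-3 did not pass the test at 0.28. The test was limma's moderated test of the mean ratio against 0, fitted on all 15092 genes, with p-values adjusted by Benjamini and Hochberg's method and called under 0.05. At an unadjusted p under 0.05 the counts were the same, 7 higher and 0 lower. At the adjusted threshold 44.4% of all genes tested were called, 20.9% higher and 23.5% lower. The share of all genes at an unadjusted p under 0.05 was not counted. The median of the 8 mean ratios was 0.90, a 1.87-fold higher level, against -0.02 over all genes tested. Of the 24 single values, 8 genes on 3 arrays, 23 lay above 0, and 7 of the 8 members were above 0 on all 3 arrays, as were 32.2% of all genes. Without replicate 1, 8 of 8 members were called higher, without replicate 2 again 7, and without replicate 3 there were 6, in fits that called 22.6%, 17.8% and 15.1% of all genes higher. The RNA came from whole samples with many tissues, so more germ cells and more RNA per germ cell cannot be told apart.

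**Figure D1:**
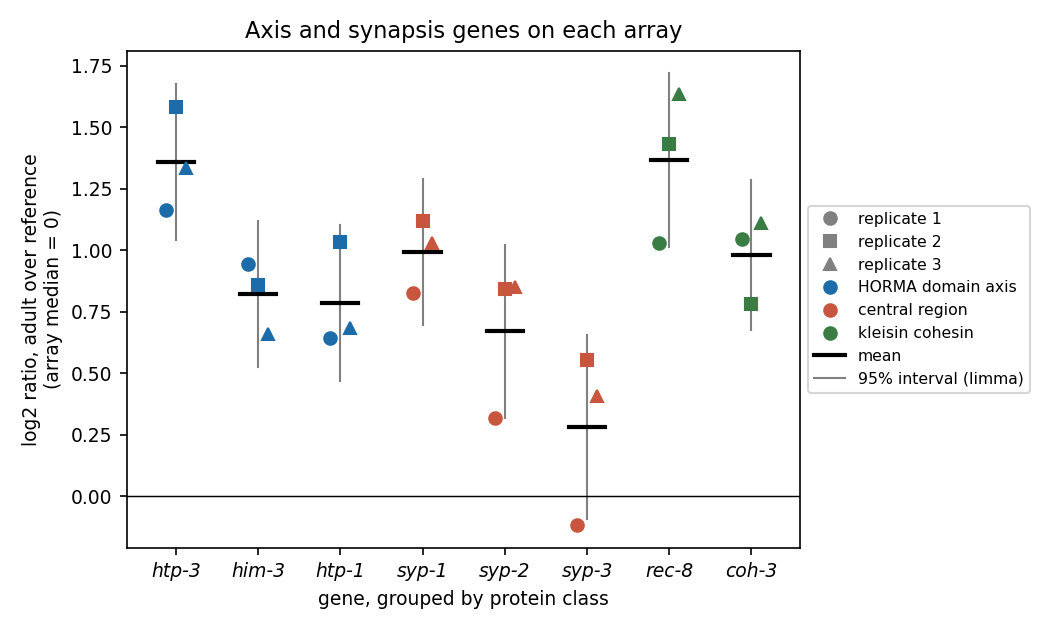
Log2 ratios of adult over reference for the 8 measured genes (array median at 0), with 1 point for each of the 3 arrays, a black bar for the mean and a grey line for limma's 95% interval. The 3 values of each gene lie above 0 except for syp-3, whose replicate 1 value is -0.12.

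HTP-3 is the HORMA domain protein that recruits the other HORMA proteins to the axis and is also needed to make meiotic DNA breaks. The htp-3 (F57C9.5) log2 ratios were 1.16, 1.58 and 1.33 on replicates 1, 2 and 3. The mean was 1.36 ± 0.21 (SD, n = 3), 2.57-fold above the reference (adjusted p = 0.000245, limma). All 3 arrays were thus more than 2-fold above the median probe, with the lowest at 2.24-fold.

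HIM-3 is an axis protein required for homologue alignment, synapsis and crossing over. The him-3 (ZK381.1) log2 ratios were 0.94, 0.86 and 0.66, with a mean of 0.82 ± 0.15 (SD, n = 3) and an adjusted p = 0.00161 by limma. The 3 arrays lay within 0.29 of one another, with replicate 3 the lowest. Centred by runs of rows, the him-3 mean was 0.64. It was then below syp-2 by 0.10 ± 0.21 (SD, n = 3), within the spread.

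HTP-1 is an axis protein that ties pairing to synapsis and helps to release sister chromatids in order at the divisions. The htp-1 (F41H10.10) log2 ratios were 0.64, 1.03 and 0.68, with a mean of 0.79 ± 0.21 (SD, n = 3) and an adjusted p = 0.00262 by limma. Replicate 2 was the high array, and replicates 1 and 3 lay close together. Centred by runs of rows, the htp-1 ratios were 0.92, 0.93 and 0.63, with replicate 3 then the low array. The htp-1 and htp-2 genes are close copies, so a probe for one can take up RNA of the other, and the htp-1 value is uncertain to that extent.

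SYP-1 is a coiled-coil protein of the central region that spans the gap between paired axes. The syp-1 (F26D2.2) log2 ratios were 0.83, 1.12 and 1.03, with a mean of 0.99 ± 0.15 (SD, n = 3), a 1.99-fold higher level (adjusted p = 0.000705, limma). Its values on the arrays were close together, and it was the highest of the 3 measured central region members on each array.

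SYP-2 is a shorter central region protein that depends on SYP-1 to load, as SYP-1 depends on it. The syp-2 (C24G6.1) log2 ratios were 0.32, 0.84 and 0.85, with a mean of 0.67 ± 0.31 (SD, n = 3) and an adjusted p = 0.00884 by limma. Replicates 2 and 3 were alike and replicate 1 was the low array. The call was lost without replicate 3 (mean 0.58, adjusted p = 0.0578, limma), in a fit that called 15.1% of all genes higher. Without replicate 2 the mean was also 0.58 and syp-2 passed (adjusted p = 0.0378, limma), in a fit that called 17.8% higher. Without replicate 1 the mean was 0.85 (adjusted p = 0.00128, limma).

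SYP-3 is a further central region protein, required like the others for any part of the central region to form. The syp-3 (F39H2.4) log2 ratios were -0.12, 0.55 and 0.41, with a mean of 0.28 ± 0.35 (SD, n = 3). It did not pass the test (adjusted p = 0.198, limma), and its 95% interval ran from -0.09 to 0.66. The single value below 0 was that of replicate 1, the array that stood apart. Without replicate 1 the mean was 0.48 and syp-3 passed (adjusted p = 0.0152, limma), in the fit that called 22.6% of all genes higher. With arrays weighted by their quality, which gave replicate 1 a weight of 0.372, it also passed, at 0.40 (adjusted p = 0.0151, limma), in a fit that called 26.3% of all genes higher.

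REC-8 is the kleisin that gives sister chromatid cohesion through both meiotic divisions. The rec-8 (W02A2.6) log2 ratios were 1.03, 1.43 and 1.63, with a mean of 1.37 ± 0.31 (SD, n = 3), a 2.58-fold higher level (adjusted p = 0.000379, limma). Replicate 1 was again the low array, at 2.04-fold.

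COH-3 is a kleisin that acts together with its near copy COH-4 in forming the axis. The coh-3 (F08H9.1) log2 ratios were 1.04, 0.78 and 1.11, with a mean of 0.98 ± 0.17 (SD, n = 3) and an adjusted p = 0.000823 by limma. Here replicate 2 was the low array. The probe's run of rows had medians of -0.48, -0.17 and -0.17 on replicates 1 to 3. Centring each array by 32 runs of rows gave coh-3 a mean of 1.25 with 1.53 on replicate 1. The coh-4 gene had no named probe, and as a near copy it can add to the coh-3 signal.

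Against the whole distribution, the members lay on the upper side but not at its top. By mean ratio, rec-8 was above 97.6% of the other tested genes and htp-3 above 97.5%, while syp-2 was above 86.9% and syp-3 above 72.8%. The median member was above 91.6%. Genes called higher with a mean ratio over 1 made up 6.53% of all tested genes, and rec-8 and htp-3 were the members among them. Tested against a 1.5-fold change with limma's treat, these same genes passed (2 of 8 members), against 6.04% of all genes on the higher side; syp-1 was just outside, with an adjusted p = 0.0509. The spread of the members was that of other genes, with a median SD over the arrays of 0.21 for both, and a range from 0.15 for him-3 to 0.35 for syp-3.

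**Figure D2:**
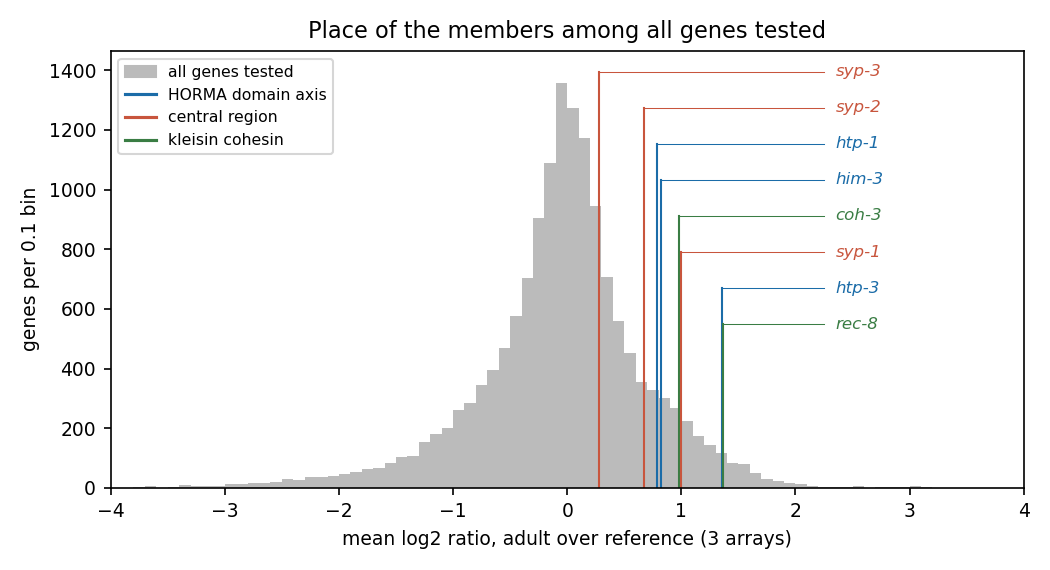
Histogram of the mean log2 ratio of adult over reference for all 15092 genes tested (bins of 0.1, genes more than 4 from 0 lie outside the axis), with a vertical line at each of the 8 measured members, coloured by protein class. Members lie to the right of the peak at 0, from 0.28 for syp-3 to 1.37 for rec-8.

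The measured ratios of the members were not all of the same size. Members were compared within each array, which removes what moves a whole array. Of the 28 pairs of members, 18 kept one order on all 3 arrays, and 23 did when arrays were centred by runs of rows. The pairs share genes and are not independent, and the share among pairs of other genes was not counted. Ratios of different genes are compared here, not their levels. The htp-3 ratio was above those of 6 of the 7 other members on all 3 arrays, and rec-8 above 5. The syp-3 ratio was below those of all 7 others on all 3 arrays, by 0.39 ± 0.09 (SD, n = 3) below syp-2, the next lowest, and by 1.08 ± 0.18 (SD, n = 3) below rec-8. Centred by runs of rows, syp-3 was still below all 7 on all 3 arrays, while htp-3 was above 5 and rec-8 above 6.

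Between neighbours in the order, most differences were within the spread. Of the 7 neighbouring pairs, 2 differed by more than the SD of their difference with one sign on all arrays: htp-3 over syp-1 by 0.37 ± 0.08 (SD, n = 3), and syp-2 over syp-3. The leading pair, rec-8 and htp-3, differed by 0.01 ± 0.25 (SD, n = 3). The genes syp-1 and coh-3 also differed by 0.01, with an SD of 0.29, and him-3 and htp-1 by 0.03 with an SD of 0.24. Centred by runs of rows, 5 of these 7 pairs had one sign on all arrays: rec-8 lay above htp-3 by 0.24 ± 0.26 (SD, n = 3), still within the spread, htp-1 above him-3 by 0.18 ± 0.13, and coh-3 above him-3 by 0.61 ± 0.33. The htp-3 ratio was then above that of syp-1 by 0.18 ± 0.09 (SD, n = 3). With arrays centred on their medians, the rank of coh-3 moved most, from 2 on replicate 1 to 7 on replicate 2. Centred by runs of rows, coh-3 was above him-3, htp-1, syp-2 and syp-3 on all 3 arrays. No test was made of these differences, because the genes were chosen with earlier results known and 3 arrays could not give an exact two-sided p below 0.25.

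**Figure D3:**
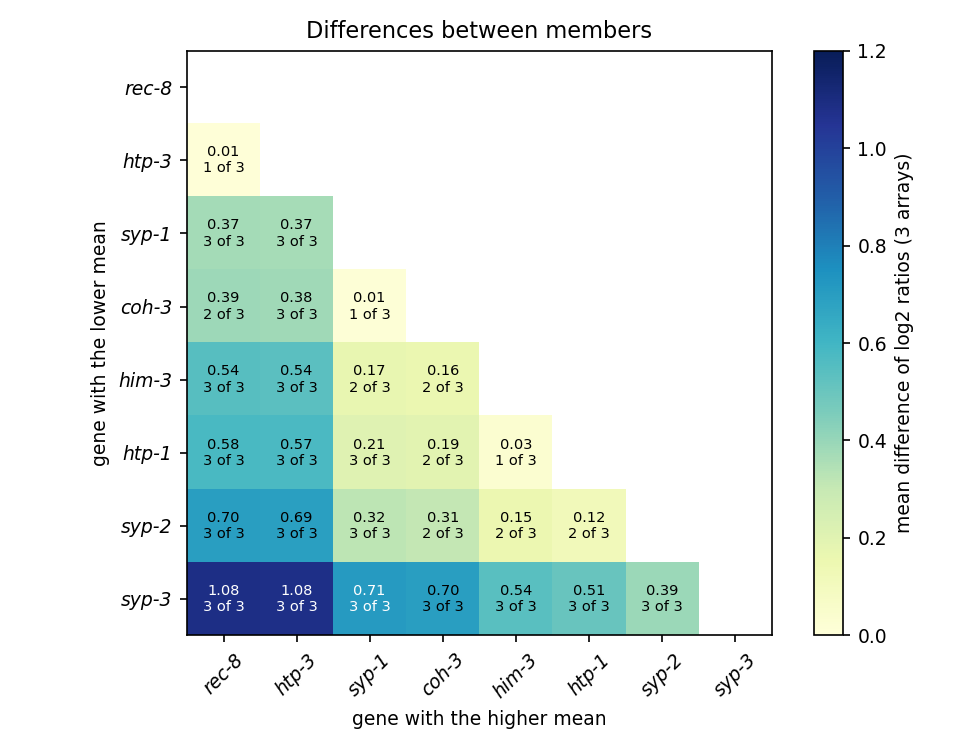
Mean difference of log2 ratios over 3 arrays for each of the 28 pairs of measured members, ordered by mean ratio; each cell gives the gene of the column minus the gene of the row and on how many of the 3 arrays that difference was above 0. The bottom row, syp-3, is below every other member on 3 of 3 arrays.

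Grouped by protein class, the 3 measured central region members had the lowest mean ratio. The class mean of the 3 HORMA domain genes was 0.92, 1.16 and 0.89 on replicates 1 to 3, or 0.99 ± 0.15 (SD, n = 3). That of the 3 central region members was 0.34, 0.84 and 0.76, or 0.65 ± 0.27 (SD, n = 3). The kleisin genes rec-8 and coh-3 together had 1.04, 1.11 and 1.37, or 1.17 ± 0.18 (SD, n = 3). On each array the mean of the central region members was the lowest of the classes. It was 0.57, 0.32 and 0.13 below the HORMA domain mean and 0.69, 0.27 and 0.61 below the kleisin mean. The gap to the HORMA genes was thus widest on replicate 1, and without that array it was 0.22. Kleisin and HORMA means differed by 0.18 ± 0.27 (SD, n = 3), within the spread, with the HORMA mean the higher on replicate 2. Centring by runs of rows raised the kleisin mean to 1.39 ± 0.13 (SD, n = 3) and that difference to 0.47 ± 0.24. The central region pattern is not one of the whole class, as syp-1 stood at 0.99, level with the HORMA mean. These class means cover members alone. The central region gene syp-6, outside the set, had 0.97, 1.03 and 1.49 on replicates 1 to 3. It was thus above the HORMA mean on replicates 1 and 3 and below it on replicate 2. Centred by runs of rows, syp-6 was at 0.89, against a HORMA mean of 0.92.

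Genes that work beside the members also had higher adult ratios for the most part. Of 12 listed cohesin genes, 8 were measured, 7 passed on the higher side and 1 missed the threshold, where 20.9% of all genes were called higher; their median was 1.06. The mitotic kleisin gene scc-1 (F10G7.4) stood at 1.75 ± 0.35 (SD, n = 3), with 1.83, 1.37 and 2.04 on replicates 1 to 3, and him-1 (F28B3.7), which encodes the SMC-1 subunit shared by mitotic and meiotic cohesin, at 1.43 ± 0.16 (SD, n = 3). Both were called (adjusted p = 0.000176 and 0.000169, limma). The lowest were evl-14, the cohesin-associated PDS-5 factor, at 0.61 (adjusted p = 0.0072, limma; without replicate 3, 0.53 and adjusted p = 0.0753), and the kleisin gene coh-1 (K08A8.3) at 0.11 ± 0.09 (SD, n = 3), which did not pass (adjusted p = 0.496, limma). Among the 4 measured kleisin genes, scc-1, rec-8 and coh-3 were thus called higher and coh-1 was not, and on each array coh-1 had the lowest ratio of them.

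All 7 measured genes of the 10 listed for chromosome pairing and the control of synapsis were higher, with a median of 0.92. For this list and the next, the share of all genes called higher at the adjusted threshold was 20.9%. The nuclear envelope genes sun-1 and zyg-12, whose proteins bridge chromosome ends to the cytoskeleton, led at 1.33 ± 0.17 and 1.22 ± 0.13 (SD, n = 3; adjusted p = 0.000227 and 0.000286, limma). The lowest were the synapsis checkpoint gene pch-2, at 0.62 (adjusted p = 0.00543, limma), and the X chromosome pairing gene him-8, at 0.58 (adjusted p = 0.00916, limma). Leaving out replicate 2 ended the him-8 call (0.48, adjusted p = 0.0638, limma). Of 32 listed genes of DNA break formation and crossing over, 26 were measured, 22 were called higher by limma, none lower (count 0, also at an unadjusted p under 0.05) and 4 neither way; the median was 0.92. They ran from xnd-1 at 1.56 ± 0.04 (SD, n = 3; adjusted p = 1e-04, limma) and the helicase gene him-6, 2.82-fold higher (adjusted p = 0.000248, limma) down to him-5 at 0.11 and the kinase gene cdk-2 at -0.06, neither of which passed (adjusted p = 0.594 and 0.792, limma).

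The few other genes listed for synapsis and the axis went both ways. Of 6 listed, 4 were measured: 2 were called higher, 1 was called lower and 1 missed the threshold. Of all genes, 20.9% were called higher and 23.5% lower. Their median was 0.50. The central region gene syp-6 (F57B10.4) stood at 1.16 ± 0.28 (SD, n = 3), with 0.97, 1.03 and 1.49 on the arrays (adjusted p = 0.000647, limma), above each of the 3 measured syp members by mean, although syp-1 was the higher on replicate 2. Centred by runs of rows, syp-6 was at 0.89 and syp-1 at 1.11, so that order turned. The gene lab-1, whose product protects sister cohesion, stood at 0.41 and did not pass (adjusted p = 0.0521, limma). It passed without replicate 1 (0.54, adjusted p = 0.0159, limma) and with centring by runs of rows (0.38, adjusted p = 0.0356, limma), which made 3 of the 4 genes called higher. SKR-1 and SKR-2 are Skp1 proteins of ubiquitin ligases that also take part in the central region. The skr-1 gene (F46A9.5) was lower, at -1.01 ± 0.43 (SD, n = 3; adjusted p = 0.00277, limma), with -1.44, -0.99 and -0.59 on the arrays. The skr-2 gene (F46A9.4) was higher, at 0.58 ± 0.19 (SD, n = 3; adjusted p = 0.00906, limma), a call that was lost without replicate 3 (0.52, adjusted p = 0.0785, limma). The skr genes are close copies that can share signal, so their separate values are uncertain.

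**Figure D4:**
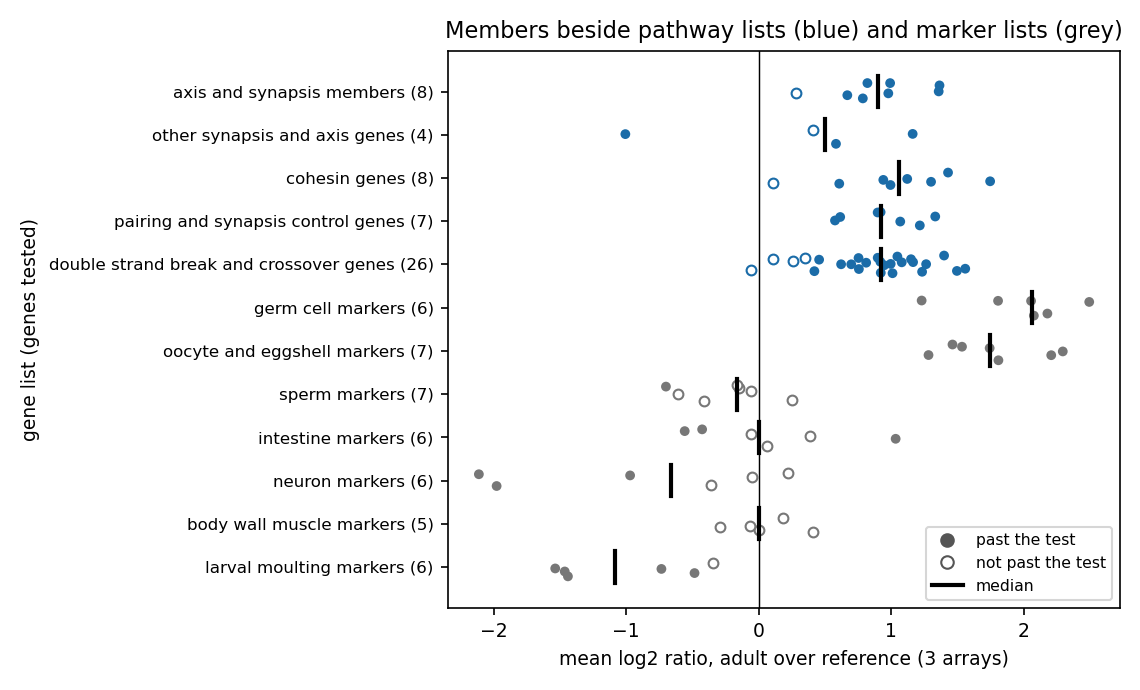
Mean log2 ratio of adult over reference for each measured gene of the axis and synapsis set, of the 4 pathway lists (blue) and of the 7 marker lists (grey), with filled points for genes past the test and a black bar for the median of each list. The axis and synapsis median, 0.90, lies near those of the pairing and crossover lists, both 0.92, and below the germ cell and oocyte marker medians, 2.07 and 1.74.

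Markers of cell types show what else differed between the RNAs. The counts below stand beside 20.9% of all genes called higher and 23.5% called lower, both at the adjusted threshold. All 6 measured germ cell markers were higher, from 1.23 to 2.50, and so were all 7 oocyte and eggshell markers, from 1.28 to 2.30. Their medians of 2.07 and 1.74 were above the ratio of every axis and synapsis member. Of 7 sperm markers limma called none higher (count 0, also at an unadjusted p under 0.05) and 1 lower (3 at an unadjusted p under 0.05), with a median of -0.16. Of 6 larval moulting markers 5 were lower, with a median of -1.09, and of 6 neuron markers 3 were lower, with a median of -0.66. The 6 intestine markers went both ways, with vit-2 higher at 1.03, elt-2 and asp-1 lower at -0.43 and -0.56, 3 not passing, and a median of 0.00. None of the 5 body wall muscle markers was called by limma (count 0, and 1 at an unadjusted p under 0.05), with a median of 0.01. The part of tissue make-up in the members' ratios was not tested.

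Genes next to the members on the chromosomes did not share one direction. In the WBcel235 RefSeq gene order the 8 measured members have 16 neighbouring protein-coding genes, 1 on each side, of which 11 were tested. Of these, 5 were called higher, 1 lower and 5 neither way, where 20.9% of all genes were called higher and 23.5% lower. Their median was 0.26, against -0.02 over all genes tested. On either side of htp-3, tofu-4 stood at 0.96 and F57C9.4 at 0.99, both called (adjusted p = 0.00103 and 0.00139, limma). The P granule gene pgl-1 lies next to him-3 and stood at 2.18, while prkl-1 on the other side was lower, at -0.65 (adjusted p = 0.000116 and 0.00443, limma). Beside rec-8, the embryonic polarity gene mex-5 stood at 1.73, and beside coh-3 the kinesin gene bmk-1 at 1.28 (adjusted p = 8.22e-05 and 0.000192, limma). Next to syp-3, F39H2.3 had ratios of -0.07, 0.46 and 0.39 on replicates 1 to 3, with the low value on the same array as that of syp-3, and did not pass (adjusted p = 0.191, limma).

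The genes most like the median profile of the 8 members were found by the root mean square difference over the 3 arrays. The 5 closest were kin-4, xpo-3, bath-15, map-2 and F55G1.6, with differences between 0.026 and 0.035 on the log2 scale and mean ratios between 0.92 and 0.96. Of the members themselves, syp-1 was the closest to that profile, at 0.12, and 146 genes outside the set were closer than it. With 1 condition and 3 arrays this likeness says no more than that the genes had ratios of the same size.

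**Figure D5:**
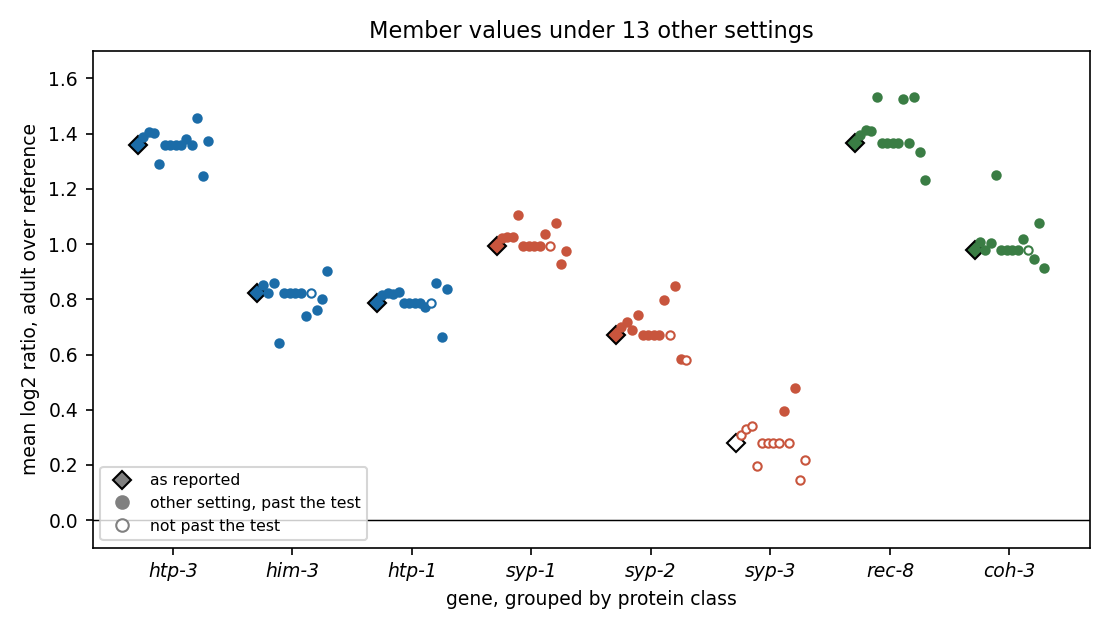
Mean log2 ratio of adult over reference for the 8 measured members as reported (diamonds) and under 13 other settings of the processing (circles), filled where the adjusted p was under 0.05. The htp-3 and rec-8 points are filled under every setting, and syp-3 ranges from 0.15 to 0.48 with 2 of 13 circles filled.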

How the data were processed

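RNA of 3 adult preps was measured against a mixed reference on 3 two-colour arrays, per the labels. The authors deposited 1 log2 ratio per probe and array; the values themselves show the log base, since 2 to the power of each of the 58013 values within 2 of 0 gives a ratio that ends at 3 decimals (100%, tolerance 0.005 thousandths). The labels and the file do not state the direction, dyes, background treatment, filters or the authors' centring. Without spot intensities, which were not used here, a probe's signal could not be set against background. Of the 20000 probes, 19807 to 19899 had a value on an array, and 3 arrays limit the precision.

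Probe names came from the platform annotation held by GEO: 15655 had 1 symbol, 198 several and 4147 none, and those with several or none were left out. Sequence names come from the WBcel235 RefSeq gene table. Positions are not printed, since the labels name no build for the probes. Arrays were centred on their medians (0.06, 0.00 and 0.02 as deposited), probes of a gene averaged, and genes with a value on all 3 arrays tested against 0 with limma 3.58.1 in R 4.3.3 (lmFit, eBayes; 2 residual and 5.3 prior degrees of freedom), with Benjamini-Hochberg adjustment at 0.05. No filter on low values was applied. The fit was run on simulated data with independent noise, without a deviating array or shifts along rows, so that run could not test those. The fit leaves out the spread of the reference itself. The members, gene lists and tests were chosen with earlier results of these data known. Named genes were every member, the 2 highest and 2 lowest of each pathway list, and the 5 most like the members. Marker and neighbouring genes, and those compared beside a member, were named after their values were seen. Alternatives were no centring, scale and quantile normalization, centring by 32 runs of rows, genes on at least 2 arrays, single probes, first probes, array weights, limma's treat against 1.5-fold, a robust prior, and leaving out each replicate.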

Additional observations from a re-analysis of the deposited data

How the results depend on the processing

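The members called higher numbered 6 to 8 of 8 when 1 replicate was left out and 7 or 8 under the other settings, except limma's treat at 1.5-fold, a stricter question by construction, which called 2. That setting called 2076 genes in all, 4 cohesin, 3 pairing, 8 crossover and 1 other synapsis gene higher, and 0 of the latter lower. Leaving out 1 replicate gave 4948 to 7102 genes called, against 6698 with all 3 arrays. Of the 4 other synapsis genes, 1 to 3 were then called higher, in fits that called 15.1% to 22.6% of all genes higher. Centring by 32 runs of rows moved the kleisin mean to 1.39 and its difference from the HORMA domain mean to 0.47, with coh-3 at 1.25 against 0.98 as reported and rec-8 at 1.53 against 1.37. The uncalled cdk-2 changed sides with quantile normalization (0.010), and ran from -0.22 to 0.085 with 1 replicate left out; the uncalled him-5 ran from -0.065 to 0.25 likewise; the cause was not tested. The lab-1 gene passed under 5 of the 13 settings, with 0.0159 the adjusted p without replicate 1. No paired analysis was possible because there is 1 group, with the reference in the other channel of each array. No signal over background was available, so a low transcript level could not be told from a true ratio near 0.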
